A study of Mus musculus with 17 samples.

Results

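The genes of DNA replication and S phase described here are 40 genes chosen by symbol for their part in copying the genome, from the loading of the replicative helicase to the packing of new DNA into chromatin. Of these, 39 had a row among the 13769 genes of the authors' deposited table, and Fen1, the flap endonuclease of the lagging strand, was not analysed here. The rule names genes and uses no measured value, but it was written with earlier results of these data known. RNA sequencing was done on 17 libraries of sorted myeloid brain cells from C57bl6/j mice. Transplanted µ (3 libraries) and transplanted TAµ (3 libraries) were sorted from adult mice that had received BU treatment and a graft of GFP Lin- cells, 3 months after the transplantation. Adult control µ (3 libraries) came from mice aged 5 months, and P10 TAµ (8 libraries) from mice on postnatal day 10. The names µ, TAµ and BU are used as the labels give them, the labels say nothing of a genotype other than the strain and the GFP of the graft, and they do not state whether host cells remained in the transplanted fractions. The series describes triplicate mice, while the 8 P10 libraries are not tied to single animals, so the p-values there measure the spread between libraries.

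DNA is copied once per cell cycle. Origin recognition and licensing proteins load the ring of Mcm proteins onto origins before S phase, Cdc45 and the GINS complex turn that ring into a moving helicase, and polymerases, a sliding clamp with its loader, and enzymes that make deoxynucleotides carry the copying through. Transcription factors of the E2F family switch on many of these genes as cells commit to division. In the brain, microglia divide often in the first weeks after birth and slowly in the healthy adult, and cells that arise from a graft must divide to fill the brain.

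The table holds the authors' comparisons and no value per library. Differences below are therefore log2 fold changes, the first-named group minus the second, where a difference of 1 is a 2-fold difference. After ± stands the standard error that each fold change implies with its p-value. A gene is called higher or lower where its Benjamini-Hochberg adjusted p, from the authors' limma fit over all genes, is under 0.05. Group means are log2 normalized expression worked out from the average expression and the fold changes of the authors' deposited table, and they serve to compare groups within a gene, not genes with each other. The lowest mean of any gene was -5.11 in transplanted µ, -4.74 in transplanted TAµ, -5.23 in adult control µ and -5.52 in P10 TAµ. Negative means rest on little signal, and the size of a fold change against them is uncertain. Brain myeloid markers such as Csf1r and Cx3cr1 were high in every group, with means of 8 markers between 8.10 and 12.03 in transplanted µ, 8.29 and 11.79 in transplanted TAµ, 7.72 and 11.92 in adult control µ, and 7.67 and 12.12 in P10 TAµ. In RNA from sorted populations, fewer cells in S phase and less of a transcript per cell cannot be told apart. The transplanted mice and each control differ in age or treatment, so between them a batch of preparation and the group cannot be told apart either.

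P10 TAµ had the highest mean of the 4 groups for 39 of the 39 measured genes, against 32.8% of all genes in the authors' deposited table. Over the 4 groups, 33 of the 39 passed an adjusted p of 0.05 for the authors' limma F, where 52.2% of all genes did. In transplanted µ 30 genes were lower than in P10 TAµ and 0 higher, in transplanted TAµ 25 were lower and 0 higher, and in adult control µ 28 were lower and 0 higher. Of all genes in the authors' deposited table, 12.6% were lower and 7.63% higher in transplanted µ than in P10 TAµ, 15.3% lower and 10.5% higher in transplanted TAµ, and 23.2% lower and 12.5% higher in adult control µ. The members' median difference was -2.71 for transplanted µ, -2.36 for transplanted TAµ and -2.80 for adult control µ, beside medians over all genes of -0.29, -0.33 and -0.41. These 3 comparisons share the P10 libraries. With the fold changes centred on the median of all genes, 28 of the 30 calls remained in transplanted µ, without Cdt1 and Pold1. In transplanted TAµ 22 of the 25 remained, without Cdt1, Prim2 and Rpa1, and in adult control µ 25 of the 28, without Gins1, Pola2 and Rpa1. Of the genes, 21 were lower than in P10 TAµ in all 3 other groups, and 5 (Pold2, Rfc1, Rfc2, Rfc5 and Slbp) were called in none of the 6 comparisons between groups. The shares of all genes with these patterns were not worked out, so these counts have no background beside them.

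**Figure D1:**
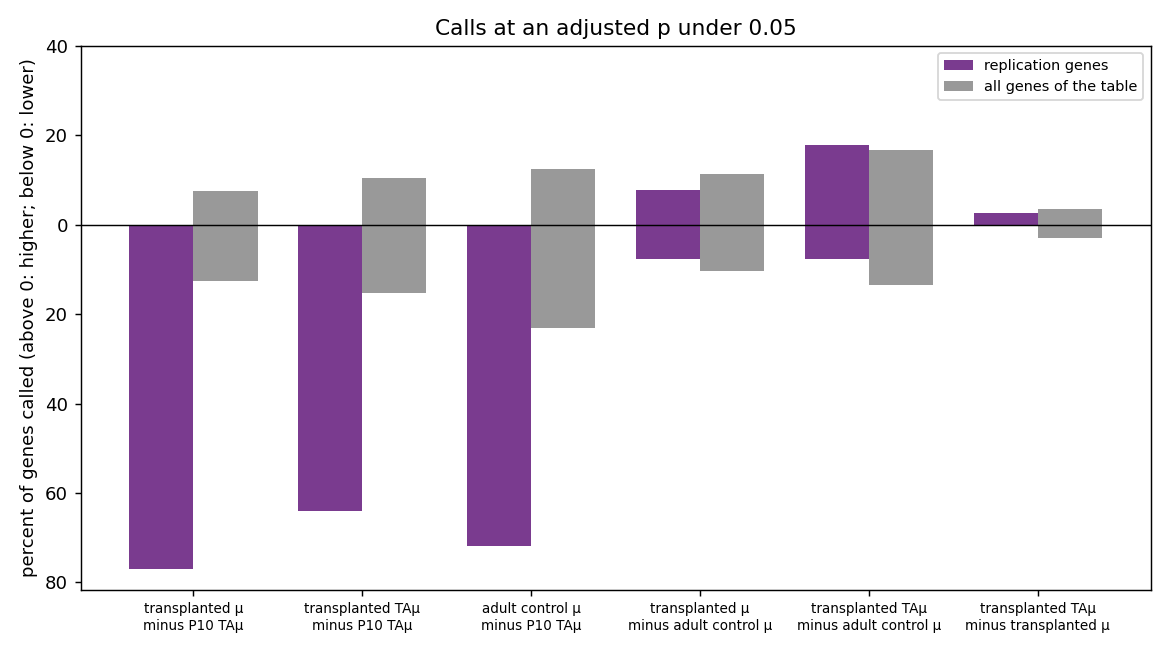
Percent of the 39 replication genes (purple) and of all 13769 genes (grey) called at a limma adjusted p under 0.05 in each of the 6 comparisons of the authors' deposited table. Bars above 0 count genes higher in the first-named group and bars below 0 genes lower in it. The purple bars reach 76.9%, 64.1% and 71.8% below 0 in the 3 comparisons with P10 TAµ and lie near the grey bars or are shorter in the comparisons among adult groups.

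All 9 licensing genes were lower in transplanted µ than in P10 TAµ, 7 of 9 were lower in transplanted TAµ, and 8 of 9 in adult control µ. Mcm6, a subunit of the helicase ring, had means of 3.90 ± 0.36 in transplanted µ, 4.27 ± 0.40 in transplanted TAµ, 2.14 ± 0.66 in adult control µ and 6.61 ± 0.11 in P10 TAµ, all from the authors' deposited table. Both transplanted fractions stood between the 2 controls. Against P10 TAµ, Mcm6 differed by -2.34 ± 0.42 in transplanted TAµ (limma adjusted p = 0.000615), -2.71 ± 0.37 in transplanted µ (adjusted p = 7e-05) and -4.48 ± 0.67 in adult control µ (adjusted p = 8.74e-05) in the authors' deposited table. Mcm3, another subunit of the ring, was lower than in P10 TAµ by a difference of -2.11 ± 0.39 in transplanted TAµ (limma adjusted p = 0.000741) and -1.95 ± 0.31 in transplanted µ (adjusted p = 0.000251) in the authors' deposited table. Cdc6, which brings the ring to the origin, had differences of -5.25 ± 1.11 in transplanted TAµ, -5.04 ± 0.90 in transplanted µ and -6.37 ± 0.96 in adult control µ against P10 TAµ in the authors' deposited table. Its means in those 3 groups lay between -2.91 and -1.57, where signal is low. Cdt1, the partner of Cdc6 in loading, had differences from P10 TAµ of -2.68 ± 0.96 in transplanted TAµ, -2.38 ± 0.75 in transplanted µ and -4.99 ± 0.93 in adult control µ in the authors' deposited table. The ring subunit Mcm2 had -2.88 ± 0.75 in transplanted TAµ, -3.57 ± 0.70 in transplanted µ and -3.13 ± 0.64 in adult control µ in the authors' deposited table. For Mcm7 the authors' deposited table has -2.13 ± 0.53 in transplanted TAµ, -2.79 ± 0.49 in transplanted µ and -1.81 ± 0.39 in adult control µ. For Mcm2 and Mcm7, no pair among these 3 groups was called. Of the exon bases of Mcm7, 12.6% are shared with neighbours, among them Ap4m1 and Cops6 on the other strand. Orc6, a subunit of the origin recognition complex, was the exception in adult control µ, at -1.11 ± 0.68 (limma adjusted p = 0.209) against P10 TAµ in the authors' deposited table.

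The helicase activators Cdc45, Gins1 and Gins2 were all lower in transplanted TAµ and in adult control µ than in P10 TAµ, and Gins1 and Gins2 also in transplanted µ. Gins1, a subunit of the GINS complex, had differences of -4.52 ± 0.78 in transplanted TAµ (limma adjusted p = 0.00046) and -3.60 ± 0.60 in transplanted µ (adjusted p = 0.000429), and a smaller one of -1.58 ± 0.46 in adult control µ (adjusted p = 0.0131), against P10 TAµ in the authors' deposited table. For Gins2 the authors' deposited table lists -4.44 ± 1.09 in transplanted TAµ and -4.25 ± 0.87 in transplanted µ against P10 TAµ. In the gene annotation 67.3% of the exon bases of Gins2 overlap Gse1 on the other strand. The counting is not stated to use strand, so whether reads in the shared part were told apart from those of Gse1 is not known.

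Among polymerases and primase, 3 of 7 genes were lower in transplanted TAµ than in P10 TAµ, and 5 of 7 in transplanted µ and in adult control µ. Prim1, the catalytic subunit of primase, had differences of -6.24 ± 1.36 in transplanted TAµ (limma adjusted p = 0.0029) and -6.33 ± 1.13 in transplanted µ (adjusted p = 0.000725) against P10 TAµ in the authors' deposited table. Its means were -2.40 in transplanted TAµ and -2.49 in transplanted µ, where signal is low, so these sizes are uncertain. Pole, the leading strand polymerase, had differences in the authors' deposited table of -3.56 ± 0.89 in transplanted TAµ and -4.49 ± 0.78 in transplanted µ. Pola2, the accessory subunit of the polymerase that starts new strands, was lower than in P10 TAµ in adult control µ, at -1.95 ± 0.69 (limma adjusted p = 0.0366), and not called in transplanted TAµ at -1.83 ± 0.83 (adjusted p = 0.112) or in transplanted µ at -0.49 ± 0.50 (adjusted p = 0.508), in the authors' deposited table. Pold2, a subunit of polymerase delta, was called in none of these comparisons. Pold1, the catalytic subunit, differed from P10 TAµ by -0.16 ± 0.81 in transplanted TAµ, -3.04 ± 1.01 in transplanted µ (limma adjusted p = 0.04) and -0.16 ± 0.69 in adult control µ in the authors' deposited table.

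Of the 5 subunits of the clamp loader and the clamp Pcna, 2 genes were lower in each transplanted fraction than in P10 TAµ, in both cases Pcna and Rfc4, and 1 (Rfc3) was lower in adult control µ. Rfc4, a small subunit, differed from P10 TAµ by -3.80 ± 1.21 in transplanted TAµ (limma adjusted p = 0.0275), -3.98 in transplanted µ (adjusted p = 0.00914) and -1.89 ± 0.88 in adult control µ (adjusted p = 0.1) in the authors' deposited table. Its means were -1.10 in transplanted TAµ and -1.27 in transplanted µ, where signal is low. Its exon bases are shared to 12.7% with Eif4a2 on the other strand. Rfc3 differed by -0.66 ± 0.80 in transplanted TAµ, -1.82 ± 0.84 in transplanted µ and -3.56 ± 1.01 in adult control µ (limma adjusted p = 0.0112), as the authors' deposited table has it. Among the 3 adult groups, Rfc4 was highest and Rfc3 lowest in adult control µ, but no pair of these groups was called for either gene. Rfc1, the large subunit, had means of 5.18 ± 0.26 in transplanted µ, 4.54 ± 0.38 in transplanted TAµ, 4.66 ± 0.30 in adult control µ and 5.47 ± 0.14 in P10 TAµ, from the authors' deposited table. The 95% interval of its difference between transplanted µ and P10 TAµ ran from -0.90 to 0.32, which leaves out a 2-fold difference in that comparison. Against P10 TAµ it ran from -1.78 to -0.08 in transplanted TAµ and from -1.50 to -0.12 in adult control µ. These 2 intervals include a 2-fold difference and leave out 0, though neither comparison was called. Rfc2, a small subunit, had means of 2.99 ± 0.39 in transplanted µ, 3.62 ± 0.41 in transplanted TAµ, 3.46 ± 0.35 in adult control µ and 4.01 ± 0.16 in P10 TAµ, from the authors' deposited table. Slbp, which binds the stem-loop of histone mRNA, had means of 3.60 ± 0.34 in transplanted µ, 4.21 ± 0.35 in transplanted TAµ, 4.06 ± 0.28 in adult control µ and 4.42 ± 0.14 in P10 TAµ, from the authors' deposited table.

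Of the single-strand binding and lagging strand genes, Lig1, the ligase that joins lagging strand pieces, had means of 3.05 ± 0.40 in transplanted µ, 3.84 ± 0.37 in transplanted TAµ, 3.57 ± 0.33 in adult control µ and 6.38 ± 0.10 in P10 TAµ, from the authors' deposited table. The 3 adult groups lay together, and the P10 cells above them. Its differences from P10 TAµ were -2.53 ± 0.39 in transplanted TAµ (limma adjusted p = 0.000152), -3.33 ± 0.41 in transplanted µ and -2.80 ± 0.35 in adult control µ in the authors' deposited table. Rpa1, the large subunit of replication protein A, which also serves DNA repair, had smaller differences in the authors' deposited table: it was lower at -0.98 ± 0.35 in transplanted TAµ (limma adjusted p = 0.0461) and -1.18 ± 0.31 in adult control µ (adjusted p = 0.00721), and not called in transplanted µ at -0.39 ± 0.25 (adjusted p = 0.284). Rpa2, its middle subunit, was called in transplanted µ alone, at -3.64 ± 0.94 (limma adjusted p = 0.0108) in the authors' deposited table. Its differences there were -1.99 ± 0.84 in transplanted TAµ and -1.24 ± 0.55 in adult control µ.

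Of the deoxynucleotide supply genes, all 4 were lower in transplanted µ than in P10 TAµ, and 3 in transplanted TAµ and in adult control µ. Rrm2, the small subunit of ribonucleotide reductase made in S phase, had means of -2.48 ± 0.82 in transplanted µ, 1.12 ± 0.79 in transplanted TAµ, -2.95 ± 0.84 in adult control µ and 5.38 ± 0.12 in P10 TAµ, from the authors' deposited table. Signal was low in transplanted µ and adult control µ, and intermediate in transplanted TAµ. Against P10 TAµ, Rrm2 differed by -4.26 ± 0.80 in transplanted TAµ (limma adjusted p = 0.000914), -7.85 ± 0.83 in transplanted µ (adjusted p = 5.33e-06) and -8.32 ± 0.85 in adult control µ (adjusted p = 1.68e-06) in the authors' deposited table. Its partner Rrm1, the large subunit, which is made more evenly through the cycle, differed by -2.42 ± 0.34 in transplanted TAµ (limma adjusted p = 6.77e-05), -2.18 ± 0.26 in transplanted µ (adjusted p = 1.52e-05) and -3.86 ± 0.43 in adult control µ (adjusted p = 4.66e-06) in the authors' deposited table. Tyms makes thymidylate and has a named pseudogene, Tyms-ps. It was lower at -3.04 ± 0.76 in transplanted TAµ (limma adjusted p = 0.00693), -1.65 ± 0.43 in transplanted µ and -2.35 ± 0.54 in adult control µ in the authors' deposited table.

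In chromatin assembly and DNA methylation, 4 of 5 genes were lower than in P10 TAµ in each of the 3 other groups, Slbp being the fifth. Uhrf1, which guides the maintenance methyltransferase to newly copied DNA, had means of 0.09 ± 1.01 in transplanted µ, -3.00 ± 1.46 in transplanted TAµ, -1.41 ± 1.10 in adult control µ and 4.53 ± 0.20 in P10 TAµ, from the authors' deposited table. The standard errors of the 3 lower groups are wide enough that their order is not settled. Its difference from P10 TAµ was -7.53 ± 1.47 in transplanted TAµ (limma adjusted p = 0.00126) in the authors' deposited table. Dnmt1, that methyltransferase, kept substantial levels in all groups, with means of 5.09 ± 0.30 in transplanted µ, 4.87 ± 0.40 in transplanted TAµ, 4.45 ± 0.37 in adult control µ and 6.92 ± 0.13 in P10 TAµ, from the authors' deposited table. It was lower than in P10 TAµ by a difference of -2.05 ± 0.42 in transplanted TAµ (limma adjusted p = 0.00198) in the authors' deposited table. Chaf1a, the large subunit of the chromatin assembly factor, was lower at -4.97 ± 1.23 in transplanted TAµ (limma adjusted p = 0.00668) in the authors' deposited table, and 52.5% of its exon bases overlap Ubxn6 on the other strand. The mean of Chaf1a in transplanted TAµ was -1.19, where signal is low.

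**Figure D2:**
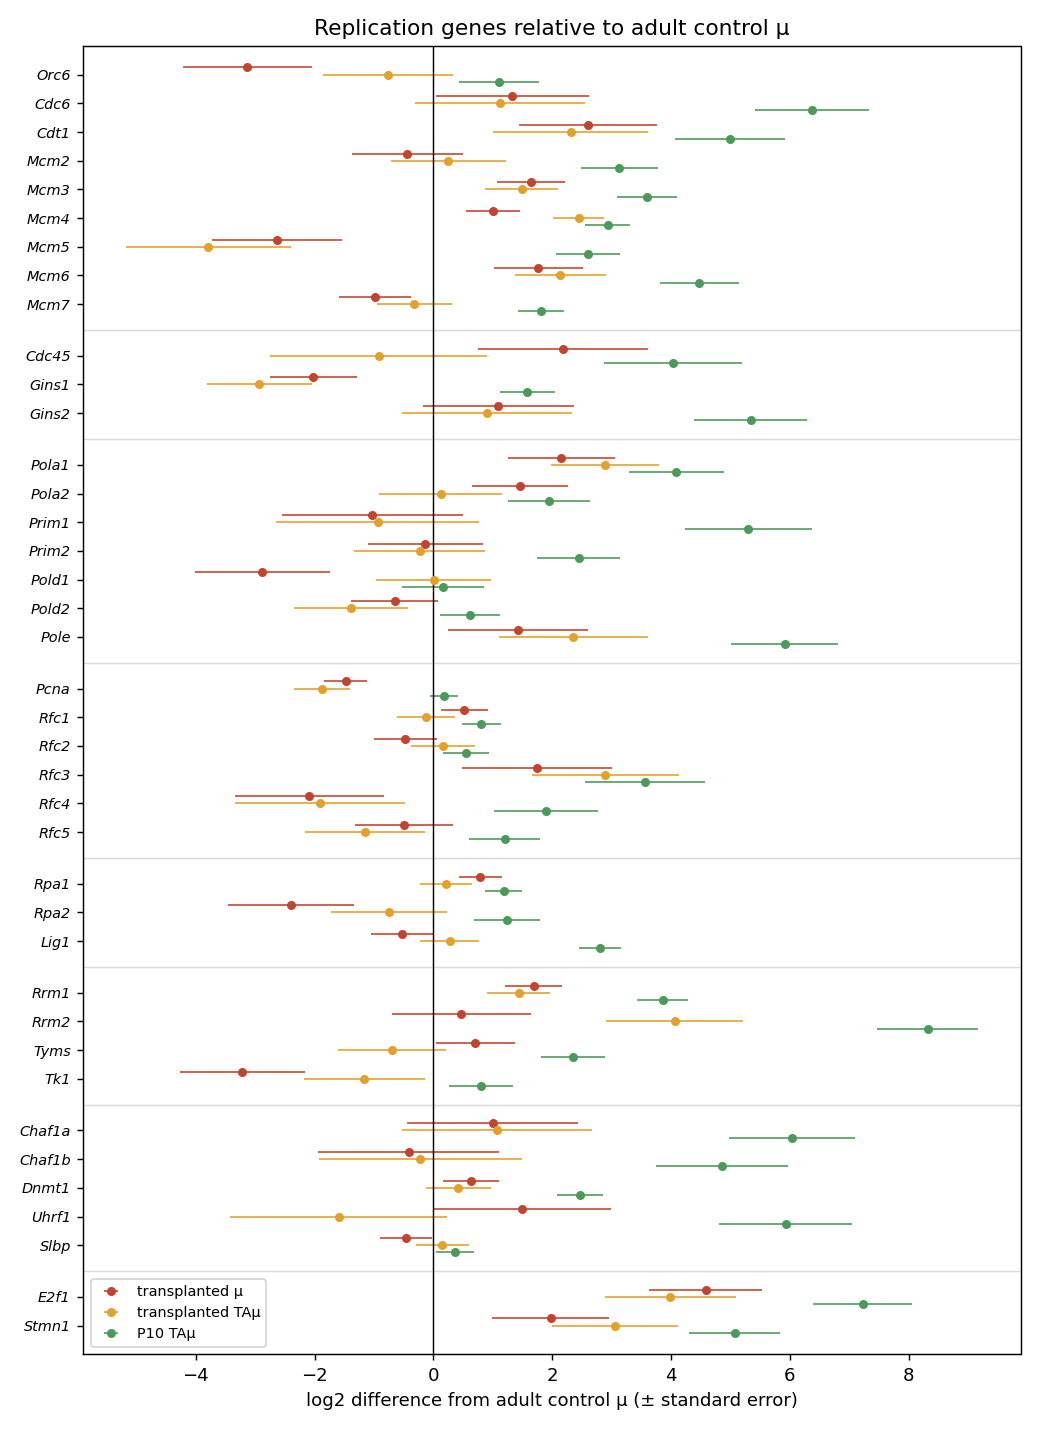
Log2 difference of each replication gene from adult control µ, by class of role, for transplanted µ (red), transplanted TAµ (orange) and P10 TAµ (green), from the authors' deposited table, with bars of 1 standard error. The green points lie at or right of the other 2 for each of the 39 genes, and the red and orange points lie on both sides of 0.

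The P10 libraries also differed from the adult ones in genes of other cell types and of division itself. All 16 mitosis genes examined, such as Mki67 and Top2a, were lower than in P10 TAµ in each of the 3 other groups. Of 5 neural progenitor genes, 3 were lower in each transplanted fraction and 5 in adult control µ than in P10 TAµ in the authors' deposited table, and their linear levels summed to 2.55 in transplanted µ, 3.35 in transplanted TAµ, 2.71 in adult control µ and 7.03 in P10 TAµ on the log2 scale. Nes, an intermediate filament gene of dividing neural precursors, had means of 1.86 in transplanted µ, 2.06 in transplanted TAµ, 2.64 in adult control µ and 6.55 in P10 TAµ, from the authors' deposited table. Of 4 oligodendrocyte precursor genes, 2 were lower in transplanted µ, 1 in transplanted TAµ and 3 in adult control µ than in P10 TAµ in the authors' deposited table, their sums being 1.09, 1.44 and -0.68 in these groups and 3.21 in P10 TAµ. Among them Cspg4 had means of -4.72 in transplanted µ, -4.68 in transplanted TAµ, -2.36 in adult control µ and 0.27 in P10 TAµ, from the authors' deposited table. Olig2 had 0.58 in transplanted µ, 0.19 in transplanted TAµ, -4.80 in adult control µ and 0.84 in P10 TAµ. Astrocyte genes ran the other way in the transplanted fractions. Of 8 astrocyte genes, 4 were higher and 0 lower in transplanted µ than in P10 TAµ, and 6 higher and 0 lower in transplanted TAµ, with sums of 10.84 in transplanted µ, 11.89 in transplanted TAµ and 8.37 in P10 TAµ. Of 8 neuron genes, 1 was higher and 2 lower in transplanted µ, and 3 higher and 0 lower in transplanted TAµ. Of 8 oligodendrocyte genes, 2 were higher and 1 lower in transplanted µ, and 3 higher and 0 lower in transplanted TAµ. In adult control µ against P10 TAµ, 1 astrocyte gene was higher and 2 lower, and 4 neuron and 3 oligodendrocyte genes were lower. The part of such cells in the gap to P10 TAµ was not tested.

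The transplanted fractions were next compared with adult control µ. In transplanted µ 3 of 39 genes were higher and 3 lower than in adult control µ, where the authors' deposited table has 11.3% of all genes higher and 10.5% lower. In transplanted TAµ 7 were higher and 3 lower than in adult control µ, where it has 16.7% of all genes higher and 13.4% lower. These shares lie near or below the background. The members' median standard error was 0.95 in transplanted µ and 1.01 in transplanted TAµ, beside 0.62 and 0.72 over all genes. A difference of a given size was thus less likely to be called in the members, and the shares do not show that they were level. The members' median difference was 0.52 in transplanted µ and 0.15 in transplanted TAµ, beside 0.19 and 0.09 over all genes. With the fold changes centred on the median of all genes, the calls in transplanted µ were 2 higher and 4 lower: Mcm3 lost its call (adjusted p = 0.0778) and Gins1 was lower. In transplanted TAµ they were then 5 higher and 3 lower, Mcm6 and Rrm1 losing theirs. Pcna, Rrm1 and E2f1 were the 3 genes called in both transplanted fractions, which were compared with the same 3 control libraries. The share of all genes called in both was not worked out.

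E2f1, the transcription factor that activates replication genes, had means of 2.26 ± 0.47 in transplanted µ, 1.66 ± 0.74 in transplanted TAµ, -2.33 ± 0.82 in adult control µ and 4.90 ± 0.13 in P10 TAµ, from the authors' deposited table. Both transplanted fractions stood well above adult control µ, where signal was low, and below P10 TAµ. It was higher than in adult control µ by 4.59 ± 0.95 in transplanted µ (limma adjusted p = 0.00326) and by 3.99 ± 1.10 in transplanted TAµ (adjusted p = 0.0116) in the authors' deposited table. Rrm1 had means of 4.72 ± 0.24 in transplanted µ, 4.47 ± 0.32 in transplanted TAµ, 3.04 ± 0.42 in adult control µ and 6.90 ± 0.09 in P10 TAµ, from the authors' deposited table. The order of groups was that of E2f1. Rrm1 was higher than in adult control µ by 1.69 ± 0.48 in transplanted µ (limma adjusted p = 0.02) and by 1.44 ± 0.53 in transplanted TAµ (adjusted p = 0.0477) in the authors' deposited table. Mcm3, with means of 4.67 ± 0.29 in transplanted µ, 4.51 ± 0.37 in transplanted TAµ and 3.03 ± 0.49 in adult control µ, was higher by 1.64 ± 0.57 in transplanted µ (limma adjusted p = 0.0479) and not called in transplanted TAµ at 1.48 ± 0.62 (adjusted p = 0.0762) in the authors' deposited table.

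For Pcna, the sliding clamp of the polymerases, adult control µ stood above both transplanted fractions. Its means were 4.25 ± 0.30 in transplanted µ, 3.85 ± 0.42 in transplanted TAµ, 5.73 ± 0.21 in adult control µ and 5.91 ± 0.11 in P10 TAµ, from the authors' deposited table. Adult control µ and P10 TAµ differed by -0.18 ± 0.24 (limma adjusted p = 0.579, 95% interval from -0.67 to 0.32), while both transplanted fractions lay below the 2 controls, in the authors' deposited table. Against adult control µ, the authors' deposited table has Pcna lower at -1.48 ± 0.37 in transplanted µ (limma adjusted p = 0.00955) and at -1.87 ± 0.47 in transplanted TAµ (adjusted p = 0.00614). The mouse annotation holds processed copies of Pcna, named Pcna-ps1 and Pcna-ps2, with which its reads could be shared. Tk1, the thymidine kinase of S phase, had means of -0.08 ± 0.93 in transplanted µ, 1.98 ± 0.88 in transplanted TAµ, 3.14 ± 0.50 in adult control µ and 3.94 ± 0.20 in P10 TAµ, from the authors' deposited table. It was lower in transplanted µ than in adult control µ, at -3.22 ± 1.06 (limma adjusted p = 0.0374), and not called in transplanted TAµ, at -1.16 ± 1.01 (adjusted p = 0.405), in the authors' deposited table. Orc6 followed the same order, with means of -1.14 ± 0.88 in transplanted µ, 1.24 ± 0.89 in transplanted TAµ and 2.0 ± 0.64 in adult control µ, and was lower in transplanted µ at -3.13 ± 1.09 (limma adjusted p = 0.0474) in the authors' deposited table.

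Subunits of a single complex were called in opposite directions in transplanted TAµ against adult control µ. The helicase ring is built from Mcm2 to Mcm7 in equal parts. In the authors' deposited table Mcm4 was higher in transplanted TAµ than in adult control µ by 2.44 ± 0.43 (limma adjusted p = 0.000573) and Mcm6 by 2.14 ± 0.77 (adjusted p = 0.0438). Mcm5 was lower at -3.79 ± 1.39 (limma adjusted p = 0.0467), with means of 0.65 ± 0.96 in transplanted µ, -0.50 ± 1.29 in transplanted TAµ, 3.28 ± 0.52 in adult control µ and 5.89 ± 0.15 in P10 TAµ, in the authors' deposited table. The remaining subunits were not called against adult control µ in transplanted TAµ, at 0.25 ± 0.97 for Mcm2, 1.48 ± 0.62 for Mcm3 and -0.32 ± 0.64 for Mcm7 in the authors' deposited table. Whether 2 subunits differ from each other was not tested. Mcm6 lost its call with the fold changes centred, and Mcm5 and Mcm6 lost theirs at a threshold of 0.01. Gins1 was lower in transplanted TAµ than in adult control µ at -2.94 ± 0.88 (limma adjusted p = 0.0183), and its means were 0.15 ± 0.59 in transplanted µ, -0.76 ± 0.77 in transplanted TAµ and 2.18 ± 0.44 in adult control µ, in the authors' deposited table.

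The other genes higher in transplanted TAµ than in adult control µ came from 3 classes. Rrm2 was higher by 4.06 ± 1.15 (limma adjusted p = 0.0134) in the authors' deposited table. Pola1, the catalytic subunit of the polymerase that starts each new strand, was higher by 2.89 ± 0.91 (limma adjusted p = 0.0236), with means of 3.04 ± 0.43 in transplanted µ, 3.79 ± 0.46 in transplanted TAµ, 0.89 ± 0.79 in adult control µ and 4.99 ± 0.15 in P10 TAµ, in the authors' deposited table. Stmn1, a microtubule-destabilizing protein made by dividing cells and also by young neurons, was higher by 3.06 ± 1.06 (limma adjusted p = 0.0361), with means of -0.63 ± 0.66 in transplanted µ, 0.46 ± 0.76 in transplanted TAµ, -2.60 ± 0.74 in adult control µ and 2.47 ± 0.22 in P10 TAµ, in the authors' deposited table. Mcm4, Pola1 and Stmn1 were lower than in P10 TAµ in transplanted µ and adult control µ. Between transplanted TAµ and P10 TAµ they were not called in the authors' deposited table, at -0.49 ± 0.24 for Mcm4 (limma adjusted p = 0.15), -1.20 ± 0.48 for Pola1 (adjusted p = 0.0737) and -2.01 ± 0.79 for Stmn1 (adjusted p = 0.0675).

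**Figure D3:**
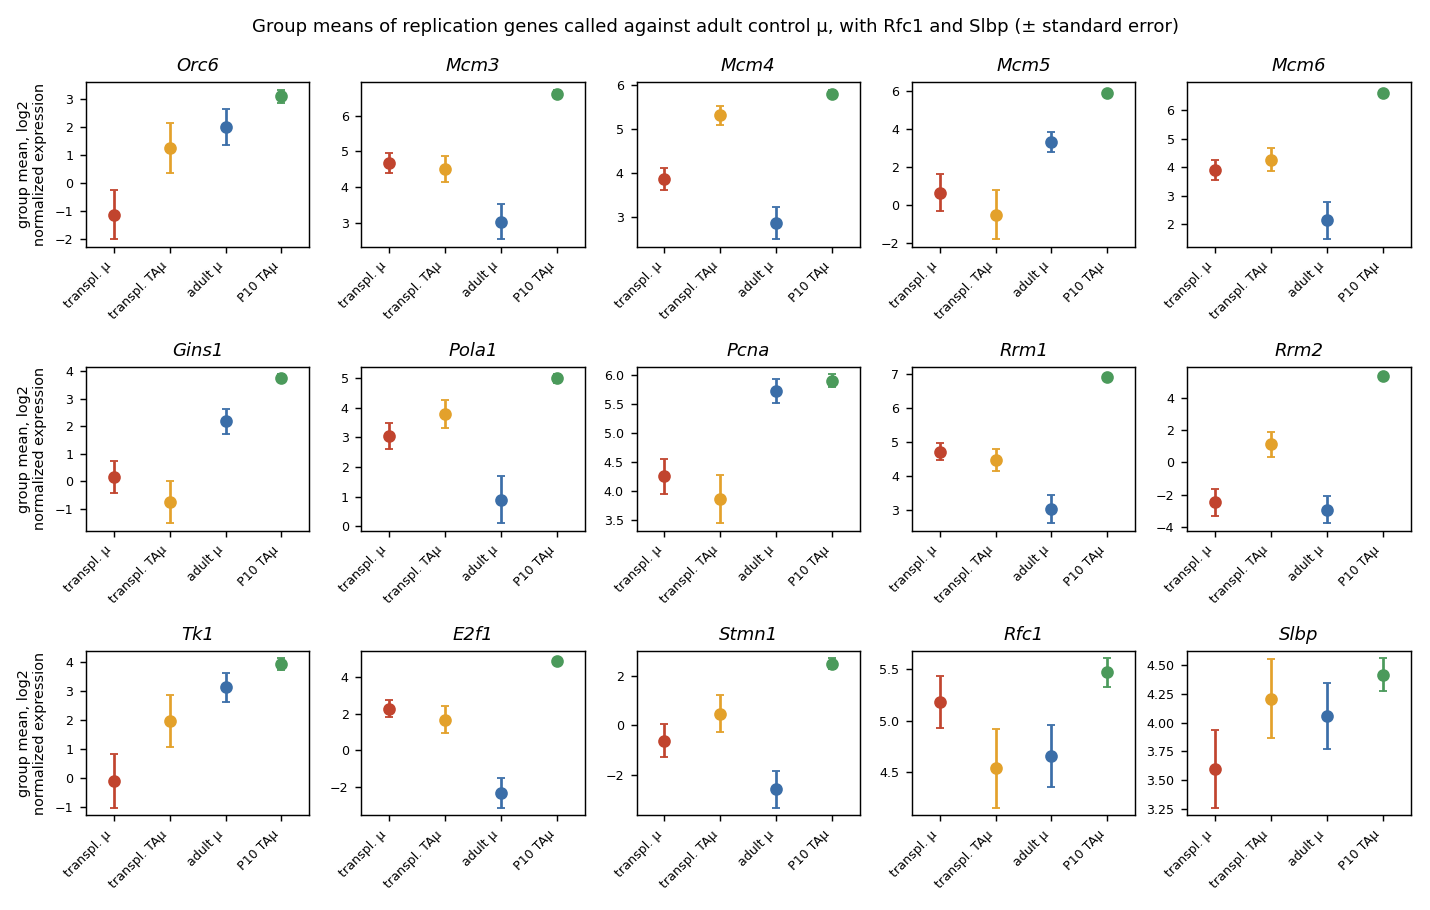
Group means in log2 normalized expression, worked out from the authors' deposited table, for the 13 replication genes called against adult control µ in at least 1 transplanted fraction and for Rfc1 and Slbp, with bars of 1 standard error; each panel has its own vertical range. E2f1, Rrm1 and Mcm3 show the transplanted fractions between the 2 controls, Pcna shows them below both, and Mcm5 and Mcm6 show opposite orders of transplanted TAµ and adult control µ.

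Markers of other cells moved with these comparisons too. Of 8 astrocyte genes, 4 were higher in transplanted µ and 7 in transplanted TAµ than in adult control µ in the authors' deposited table. Of 8 neuron genes, 5 were higher in transplanted µ and 7 in transplanted TAµ, and of 8 oligodendrocyte genes 2 and 5 were higher, with 0 lower in any of the 3 lists. Summed linear levels on the log2 scale were 10.84 in transplanted µ, 11.89 in transplanted TAµ and 8.74 in adult control µ for astrocyte genes, 7.49, 8.36 and 5.22 in the same groups for neuron genes, and 9.81, 10.71 and 7.53 for oligodendrocyte genes. Of 3 erythroid genes, 1 was higher in transplanted µ and 2 in transplanted TAµ than in adult control µ, their sums being -0.57, 2.85 and 0.37. Of 16 mitosis genes in the authors' deposited table, 0 were called in transplanted µ and 2 were higher in transplanted TAµ, Top2a by 1.54 ± 0.56 (limma adjusted p = 0.0448) and Kif11 by 4.04 ± 1.27 (adjusted p = 0.0226). Of 8 p53 targets that stop the cell cycle, 4 were higher and 1 lower in transplanted µ than in adult control µ, and 3 were higher and 2 lower in transplanted TAµ. The part of these cells and programmes in the replication genes was not tested.

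Promoters of some members are shown for their E2F words, as a description of sequence only. Mcm5, Mcm6 and Pola1 were chosen because their entries hold 3 or more words, so their word counts follow from that choice. Rrm1 and Pcna were added by name. Sequences are those of RefSeq on GRCm38.p6, 200 bases before the gene's start in RefSeq, read 5′ to 3′ on the gene's strand. Capitals mark the words searched on both strands, namely TTCCCGC or TTGGCGC, and likewise TTCGCGC or TTGCCGC, with their reverse complements, which may overlap each other. Mcm6 lies at chr1:128359706-128359905 on the minus strand, Mcm5 at chr8:75109309-75109508 on the plus strand, Pola1 at chrX:93632156-93632355 on the minus strand, Rrm1 at chr7:102441495-102441694 on the plus strand and Pcna at chr2:132253181-132253380 on the minus strand.
Mcm6: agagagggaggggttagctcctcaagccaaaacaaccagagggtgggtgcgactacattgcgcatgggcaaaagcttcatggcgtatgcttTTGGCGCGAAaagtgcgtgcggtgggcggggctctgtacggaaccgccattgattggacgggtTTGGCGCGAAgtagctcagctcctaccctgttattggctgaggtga
Mcm5: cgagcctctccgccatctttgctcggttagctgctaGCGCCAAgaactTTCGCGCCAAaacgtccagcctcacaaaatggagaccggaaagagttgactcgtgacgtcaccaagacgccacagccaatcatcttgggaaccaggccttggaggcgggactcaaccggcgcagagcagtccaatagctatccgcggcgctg
Pola1: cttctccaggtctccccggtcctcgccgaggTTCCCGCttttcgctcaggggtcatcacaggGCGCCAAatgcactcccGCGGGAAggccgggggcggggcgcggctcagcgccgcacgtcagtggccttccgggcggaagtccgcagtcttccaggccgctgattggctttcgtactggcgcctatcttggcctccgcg
Rrm1: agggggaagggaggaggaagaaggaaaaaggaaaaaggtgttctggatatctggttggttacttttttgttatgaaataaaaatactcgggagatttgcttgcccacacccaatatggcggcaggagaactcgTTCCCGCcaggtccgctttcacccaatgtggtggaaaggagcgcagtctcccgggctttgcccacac
Pcna: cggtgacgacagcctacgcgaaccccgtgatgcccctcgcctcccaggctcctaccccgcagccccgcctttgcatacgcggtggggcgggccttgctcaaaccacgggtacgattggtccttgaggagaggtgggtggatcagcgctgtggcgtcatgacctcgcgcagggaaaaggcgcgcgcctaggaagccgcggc
Mcm6 holds 4 words, in overlapping pairs that begin 109 and 46 bases before the start. Mcm5 holds 3, the first beginning 164 and the last 149 bases before the start, and Pola1 holds 3. Rrm1 holds 1 word, and this stretch of Pcna holds none of these letters. The GENCODE gene of Pcna begins further upstream, inside the stretch shown, so what is found before its start depends on the start used. Mcm5 and Mcm6, with several words each, were called in opposite directions between transplanted TAµ and adult control µ. Any part of these words in the calls was not tested.

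Promoter entries were matched for 32 of the 39 genes. In the 250 bases before a start, an E2F word stood in 14 of the 32, or 43.8%, and in 16.4% of the 9437 genes of the table with an entry. The CCAAT box, searched as CCAAT or ATTGG, stood in 21 of the 32, or 65.6%, and in 40.6% of all. Median GC content was 61.2% for the members and 60.0% for all. Of the members called against adult control µ in at least 1 transplanted fraction, an E2F word was found in 4 of the 6 higher ones with an entry and in 1 of the 4 lower ones. Both groups are small and were formed from the calls themselves, and a part of E2F factors in them was not tested. These matches describe letters in a window and not sites bound in these cells.

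Set against each other, the 2 transplanted fractions gave few calls in these genes. The labels give the libraries of both fractions the same replicate letters (a, b and c). Whether the authors' fit took account of such pairs is not given. Mcm4 alone was called, higher in transplanted TAµ than in transplanted µ by 1.44 ± 0.34 (limma adjusted p = 0.018) in the authors' deposited table, which is 1 of 39 higher and 0 lower where 3.56% of all genes were higher and 2.93% lower. Its means were 5.30 ± 0.23 in transplanted TAµ and 3.86 ± 0.26 in transplanted µ, beside 2.86 ± 0.37 in adult control µ and 5.79 ± 0.09 in P10 TAµ. Rrm2 had the next smallest adjusted p, at 3.59 ± 1.14 (limma adjusted p = 0.0677), as the authors' deposited table has it. For E2f1 the 95% interval of the difference ran from -2.43 to 1.24, so 2-fold differences in either direction lie inside it.

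Each transplanted fraction was also measured against the control of its own name, transplanted TAµ against P10 TAµ and transplanted µ against adult control µ. The difference between these 2 differences was negative and called for 18 of 39 genes and positive and called for 0, where 9.61% of the 13760 genes tested were more negative and 3.78% more positive. The members' median was -2.69, beside -0.50 over all genes. Centred on that median, 10 of the 18 kept their calls. By its arithmetic this quantity equals transplanted TAµ minus transplanted µ plus adult control µ minus P10 TAµ. The members' median was 0.07 for transplanted TAµ minus transplanted µ, with 1 of 39 called. It was -2.80 for adult control µ minus P10 TAµ, with 28 of 39 called lower. The gap between the 2 controls thus enters the quantity in full, and these calls are no result separate from that gap. Age and fraction of the controls cannot be told apart.

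Rrm1 had the smallest adjusted p, at -4.11 ± 0.59 (limma-type adjusted p = 0.000426): it was lower in transplanted TAµ than in P10 TAµ and higher in transplanted µ than in adult control µ. E2f1 had -7.82 ± 1.21 (limma-type adjusted p = 0.000746), from -3.24 in transplanted TAµ against P10 TAµ and 4.59 in transplanted µ against adult control µ. Mcm3 had -3.75 ± 0.69 (limma-type adjusted p = 0.00242), with both calls as for Rrm1. Mcm6 had -4.10 ± 0.86 (limma-type adjusted p = 0.00535), being lower in transplanted TAµ than in P10 TAµ and not called in transplanted µ against adult control µ, at 1.76 ± 0.75 (adjusted p = 0.0977 in the authors' deposited table). Uhrf1 had the largest size, -9.02 ± 2.10 (limma-type adjusted p = 0.0103), with low signal in transplanted TAµ and adult control µ. Pcna was not called, at -0.57 ± 0.57 (limma-type adjusted p = 0.527), being lower in each. No gene of the clamp and clamp loader class was called, against 4 of 9 licensing genes, 2 of 3 helicase activators, 2 of 7 polymerases and primase, 2 of 3 single-strand binding and lagging strand genes, 3 of 4 nucleotide supply genes, 3 of 5 chromatin genes and both E2f1 and Stmn1.

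**Figure D4:**
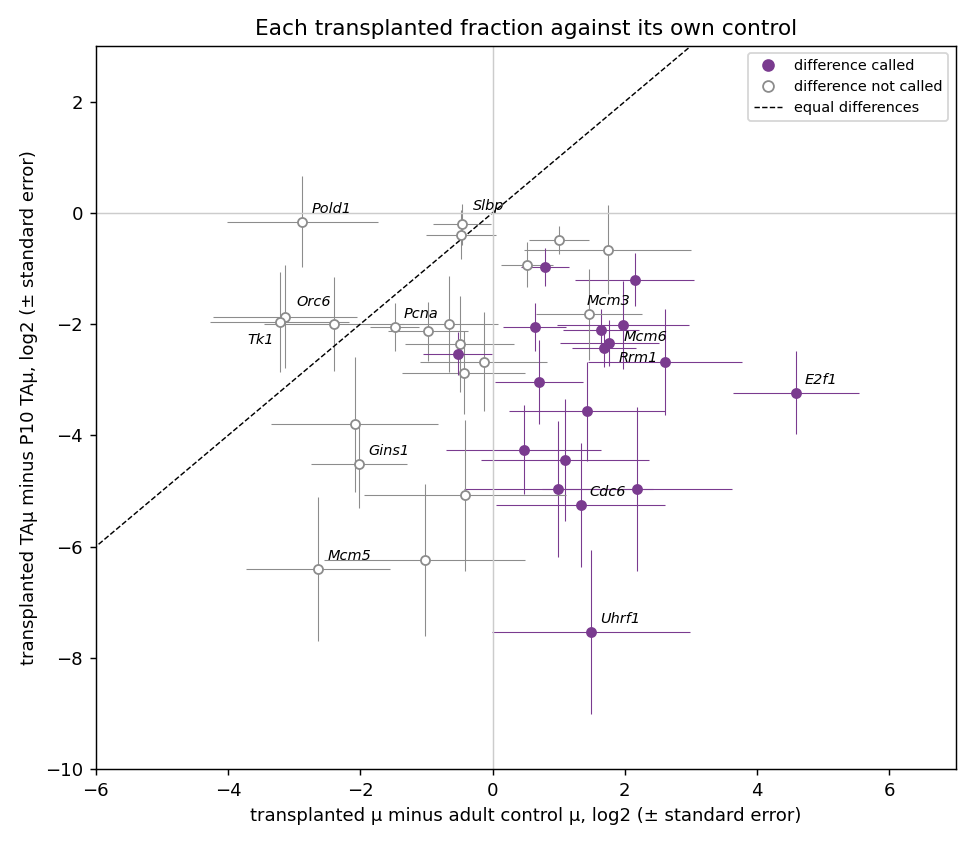
Log2 difference of transplanted TAµ from P10 TAµ (vertical) against that of transplanted µ from adult control µ (horizontal) for the 39 replication genes, from the authors' deposited table, with bars of 1 standard error on both axes. The dashed line marks equal differences, and the 18 filled points, those whose difference between the 2 axes was called at an adjusted p under 0.05, lie below it, with E2f1 farthest to the right and Uhrf1 lowest.

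A further 83 genes of replication and its control were read beside the members. P10 TAµ had the highest mean for 64 of the 83. By the calls of the authors' deposited table, 46 were lower and 3 higher in transplanted µ than in P10 TAµ, 38 lower and 2 higher in transplanted TAµ, and 46 lower and 4 higher in adult control µ. As percentages of the 83, 55.4% were lower and 3.61% higher in transplanted µ, 45.8% lower and 2.41% higher in transplanted TAµ, and 55.4% lower and 4.82% higher in adult control µ. The shares over all genes were 12.6% lower and 7.63% higher, 15.3% lower and 10.5% higher, and 23.2% lower and 12.5% higher in the same order of groups. Mybl2, an E2F target that drives later cell cycle genes, was lower than in P10 TAµ at -6.42 ± 0.81 in transplanted TAµ (limma adjusted p = 2.55e-05) and -6.46 ± 0.68 in transplanted µ (adjusted p = 5.13e-06) in the authors' deposited table. Its means of -4.63 in transplanted µ and -4.59 in transplanted TAµ lie near the lowest means of the table, against 0.42 in adult control µ and 1.83 in P10 TAµ, so these sizes are no bounds. Clspn, which couples the fork to the checkpoint, and Timeless, its partner at the fork, were also lower in transplanted TAµ than in P10 TAµ, at -8.03 ± 1.54 (limma adjusted p = 0.00109) and -7.36 ± 1.29 (adjusted p = 0.000539) in the authors' deposited table. Rb1, the retinoblastoma protein that restrains E2F, was higher in both transplanted fractions than in P10 TAµ, by 0.68 ± 0.16 in transplanted µ (limma adjusted p = 0.00655) and 0.61 ± 0.19 in transplanted TAµ (adjusted p = 0.0252), in the authors' deposited table.

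Against adult control µ, 4 of the 83 were higher and 5 lower in transplanted µ, and 10 higher and 6 lower in transplanted TAµ, in the authors' deposited table. These are 4.82% and 6.02% in transplanted µ, beside 11.3% and 10.5% of all genes, and 12.05% and 7.23% in transplanted TAµ, beside 16.7% and 13.4%. All 4 shares lie below those of all genes. Mybl2 was lower in both fractions, at -5.05 ± 0.81 in transplanted µ (limma adjusted p = 0.000595) and -5.01 ± 0.93 in transplanted TAµ (adjusted p = 0.000787), in the authors' deposited table. Orc1, the largest subunit of the origin recognition complex, was lower at -3.38 ± 1.06 in transplanted µ (limma adjusted p = 0.0313) and -4.51 ± 1.27 in transplanted TAµ (adjusted p = 0.0127) in the authors' deposited table. Dek, a chromatin protein, was higher in both, by 1.04 ± 0.35 in transplanted µ (limma adjusted p = 0.0431) and 1.25 ± 0.38 in transplanted TAµ (adjusted p = 0.0203), in the authors' deposited table. In transplanted TAµ against adult control µ, the authors' deposited table has Ccne1, the cyclin that opens S phase with Cdk2, higher by 4.92 ± 0.95 (limma adjusted p = 0.00105), and Cdk2 lower at -3.24 ± 0.84 (adjusted p = 0.00745). It also has Ccne1 higher in transplanted TAµ than in transplanted µ, by 5.45 ± 0.95 (limma adjusted p = 0.00236), and its means were 1.53 in transplanted TAµ and -3.92 in transplanted µ.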

How the data were processed

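Per the submitters' processing notes, reads were handled with STAR 2.3.0, HTSeq 0.5.3 and limma on mm10. How values were normalized, which genes were filtered, the annotation and the limma settings are each not given in the sources used here. Totals per library were not used, so the depth per library is unknown. The single table used holds log2 normalized expression averaged over libraries and log2 fold changes, made by the authors per the file headers. The p-values, raw and adjusted, are those of the authors' fit with limma. F and the call (1, 0 or -1) are score columns that the authors deposited. Fold changes were read as first-named minus second-named, and 8 marrow-derived and class II markers, none of them a replication gene, agreed: 8 of 8 were higher in transplanted TAµ than in P10 TAµ.

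The standard error of a fold change was obtained from its p on 18 degrees of freedom, a number solved over 3000 genes from F and the p of F, in Python 3.11.15 with scipy 1.17.1. Group means weight the 17 libraries equally: 69 of 70 genes sharing the most frequent fold change between the transplanted fractions then fell between -4.71 and -4.49. The authors' fit may weight libraries otherwise, so means are approximate, while fold changes are unaffected. The difference of transplant effects was tested from these standard errors on 13760 genes, a step tested on simulated data with independent libraries. The simulation held no pairs of transplanted fractions, so it cannot check what such pairs do to this test. Genes named are the 2 of each class with the smallest adjusted p in transplanted TAµ against P10 TAµ, every gene called against the majority or among 5 or fewer, and every gene called for the difference of effects; Rfc1, Rfc2, Slbp, Pold1, Orc6 against P10 TAµ and others outside it were chosen after their values were seen. The members and gene lists were chosen with earlier results of these data known. Exon overlap was taken from GENCODE M21 on GRCm38: 14 of 39 genes share exon bases with another gene, 6 of them over 10%. Promoters came from RefSeq. Alternatives were an expression filter, Bonferroni adjustment, a threshold of 0.01, an absolute log2 fold change of 1 or more, centring on the median fold change, 1 entry per symbol and a normal distribution for the degrees of freedom.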

Additional observations from a re-analysis of the deposited data

Results flagged for a closer look

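For 18 genes the difference between transplanted TAµ and P10 TAµ and that between transplanted µ and adult control µ were themselves different, by the test of the difference described above. Each value is the first difference minus the second on the log2 scale, and all 18 were negative. Among licensing genes it was -6.58 for Cdc6, -5.29 for Cdt1, -3.75 for Mcm3 and -4.10 for Mcm6. Among helicase activators it was -7.14 for Cdc45 and -5.53 for Gins2, and among polymerases -3.35 for Pola1 and -4.99 for Pole. Rpa1 had -1.77 and Lig1 -2.01. In nucleotide supply it was -4.11 for Rrm1, -4.73 for Rrm2 and -3.74 for Tyms. In chromatin assembly and DNA methylation it was -5.96 for Chaf1a, -2.69 for Dnmt1 and -9.02 for Uhrf1. E2f1 had -7.82 and Stmn1 -3.99. Gins2, Pola1, Pole, Rpa1, Lig1, Rrm2, Chaf1a and Stmn1 lost their calls with the values centred on the median of all genes. At a threshold of 0.01, only Mcm3, Mcm6, Rrm1 and E2f1 kept theirs. Uhrf1, E2f1, Cdc45, Cdc6 and Chaf1a, with the largest sizes, had negative means in adult control µ, where signal is low, so these sizes are uncertain. Both differences enter each value, and with them the gap between the 2 controls described above. The controls differ in age, so age, fraction and transplantation cannot be told apart in these values.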

How the results depend on the processing

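No call of a member changed its direction under centring, and the other alternatives leave the sign of a fold change as it is. Of 304 results for single named genes under alternatives, 228 kept their side of the threshold, 75 lost it and 1 gained it. Of the 228, 44 came from 1 entry per symbol, which changes nothing because no symbol is repeated. Another 43 came from the normal distribution, which can only lower a p-value, so these 2 settings could not lose a call. At a threshold of 0.01 the members called against adult control µ were 2 in transplanted µ and 2 in transplanted TAµ, with 0 between the transplanted fractions and 4 for the difference of effects. Under Bonferroni adjustment they were 1 for transplanted TAµ against P10 TAµ, 5 for transplanted µ against P10 TAµ, 10 for adult control µ against P10 TAµ, 1 for the difference of effects and 0 in the 3 comparisons among adult groups. Centring left 10 for the difference of effects, and a normal distribution gave 2 for transplanted TAµ against transplanted µ. The cause of a lost call is the stricter limit by construction for the threshold and Bonferroni settings, and for the others it was not tested. Filtering at the first quartile of average expression, 0.88, removes Cdc6, Prim1, Chaf1b and Stmn1. Leaving out each replicate was not run, since the table holds no value per library. For the same reason, no paired analysis by the replicate letters that the transplanted fractions share was possible. Without counts, low expression limits the members with negative means.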

Other observations

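Genes that supply deoxynucleotides or break them down, outside the list described above, included several that were higher in transplanted TAµ than in adult control µ. Of 13 such genes in the authors' deposited table, 5 were higher and 1 was lower, beside 16.7% higher and 13.4% lower over all genes. In transplanted µ against adult control µ, 0 of the 13 were higher and 0 lower. Dck, the kinase that salvages deoxycytidine, was higher by 2.14 ± 0.43 (limma adjusted p = 0.00148), with means of 5.41 in transplanted TAµ and 3.26 in adult control µ, in the authors' deposited table. Samhd1, which breaks deoxynucleotides down in myeloid cells that do not divide, was higher by 1.14 ± 0.31 (limma adjusted p = 0.0107) in the authors' deposited table. It was also higher in transplanted TAµ than in P10 TAµ, by 1.39 ± 0.26 (limma adjusted p = 0.00085), with means of 7.63 in transplanted TAµ and 6.24 in P10 TAµ, where 0 of the 39 members were higher. Shmt1, an enzyme of the folate cycle that feeds thymidylate synthesis, was the gene lower than in adult control µ, at -5.28 ± 1.21 (limma adjusted p = 0.00353), with means of -3.14 in transplanted TAµ and 2.14 in adult control µ, in the authors' deposited table. Signal is low in transplanted TAµ, so that size is uncertain. Rrm2b, the ribonucleotide reductase subunit induced by p53, was higher in transplanted µ than in P10 TAµ by 1.66 ± 0.39 (limma adjusted p = 0.00615), with means of 5.01 in transplanted µ and 3.35 in P10 TAµ, in the authors' deposited table.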
